A study of Mus musculus with 8 samples.

Results

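Endothelial cells line blood vessels, and their specialised form in the heart, the endocardium, lines the cardiac lumen. They adhere to each other through VE-cadherin (Cdh5) and PECAM-1 (Pecam1), and receive signals through 2 families of receptor tyrosine kinases, the VEGF receptors (Flt1, Kdr and Flt4) and the Tie receptors (Tek and Tie1). In the outflow tract the endocardium is known to respond to VEGF signals and to blood flow, and some of its cells leave the lining to populate the cushions that later form valves and septa. To examine these genes after reduction of Isl1, a LIM-homeodomain transcription factor of second heart field progenitors, 10 genes were taken by their symbols from a table of 20701 symbols. These were the identity genes Pecam1, Cdh5, Emcn, Klf2 and Npas1, the VEGF receptor genes and the Tie receptor genes. For each, the transcript with the highest mean count was kept.

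The material was polyadenylated RNA of single E10.5 embryos of the C57BL/6 strain, taken from the outflow tract together with the right ventricle (OFT/RV). The 4 CTRL embryos were labelled wild type. The 4 Isl1_hypo embryos were Isl1 hypomorphs, which the study writes as Isl1-f;neo/f;neo, an allele on both copies of the gene that is not driven by a Cre. The labels give no treatment for either group. The samples are whole tissue without sorting, so that a lower level of an endothelial gene can come from fewer endothelial cells or from less RNA per cell, which cannot be told apart.

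Total counts ranged from 29748458 to 46678973 in CTRL and from 18422245 to 33050298 in Isl1_hypo. Levels are given as CPM, counts divided by the library size and set to a common total, with library sizes scaled by the TMM method. Isl1 was at 20.5% of its CTRL mean in Isl1_hypo (log2 fold change −2.29, SE 0.256, adjusted p = 0.0077, edgeR quasi-likelihood test), and its groups did not overlap. The size of this difference was kept with the replicate number as a block (−2.29, adjusted p = 0.0722) and with the globin level as a covariate (−2.30, adjusted p = 0.507), but the call was lost. Log2 CPM changed by 0.119 for each log2 unit of transcript length in CTRL replicate 1 and by −0.108 in Isl1_hypo replicate 3. In the remaining libraries it changed by −0.0282 to 0.0314. Isl1_hypo replicates 1 and 3 stood apart from the other libraries in further ways. Replicate 1 held the epithelial transcripts Cldn6 at 38.5 CPM, Cdh1 at 15.3 CPM, Epcam at 9.83 CPM and Esrp1 at 6.03 CPM, where the other 7 libraries held at most 1.87 CPM of any of them. In replicate 3 the levels followed GC content. Its log2 CPM changed by −0.296 for each 10 points of GC content, against −0.0354 to 0.112 in the other 7 libraries. For some of the values below, the result without 1 of these libraries is also given. Of the 13769 genes tested, 37 had an adjusted p under 0.05 (0.269%) and 1633 an unadjusted p under 0.05 (11.9%). The 37 became 0 with the block and 0 with the globin covariate. Globin genes held 0.212% to 1.19% of the counts in CTRL and 1.18% to 2.44% in Isl1_hypo. Globin level and group thus largely coincide, and the fit with the covariate cannot cleanly separate them.

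The lining of the OFT/RV was well represented in all libraries, since 9 of the 10 genes were measured at 163 to 8779 counts in each. Npas1 encodes a bHLH-PAS transcription factor known from neurons and is no defining marker of endothelium. It was at 3 to 10 counts in every library and was removed by the filter on low counts. To compare levels between genes, CPM were divided by transcript length in kilobases. In CTRL, Emcn stood at 50.1 ± 4.43 CPM per kilobase (SD, n = 4), Pecam1 at 43.0 ± 5.67 and Tek at 40.1 ± 4.08. The ranges of neighbours overlapped among these 3 genes. Below them lay Tie1 at 28.3 ± 4.11 and Cdh5 at 22.7 ± 3.06, whose ranges overlapped each other, and then Kdr at 16.4 ± 3.04 and Flt1 at 6.69 ± 0.756, each apart from its neighbours. Klf2 (4.44 ± 0.696) and Flt4 (3.77 ± 0.762) overlapped, and Npas1 was lowest at 0.103 ± 0.0311. In Isl1_hypo, Emcn was again highest at 58.7 ± 7.37 CPM per kilobase and no longer overlapped its neighbour, which was Tek at 35.5 ± 5.72 in place of Pecam1 at 28.9 ± 5.68. From Tek down to Kdr (14.2 ± 0.863) each gene overlapped the next, and the order of the remaining genes was that of CTRL.

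**Figure D1:**
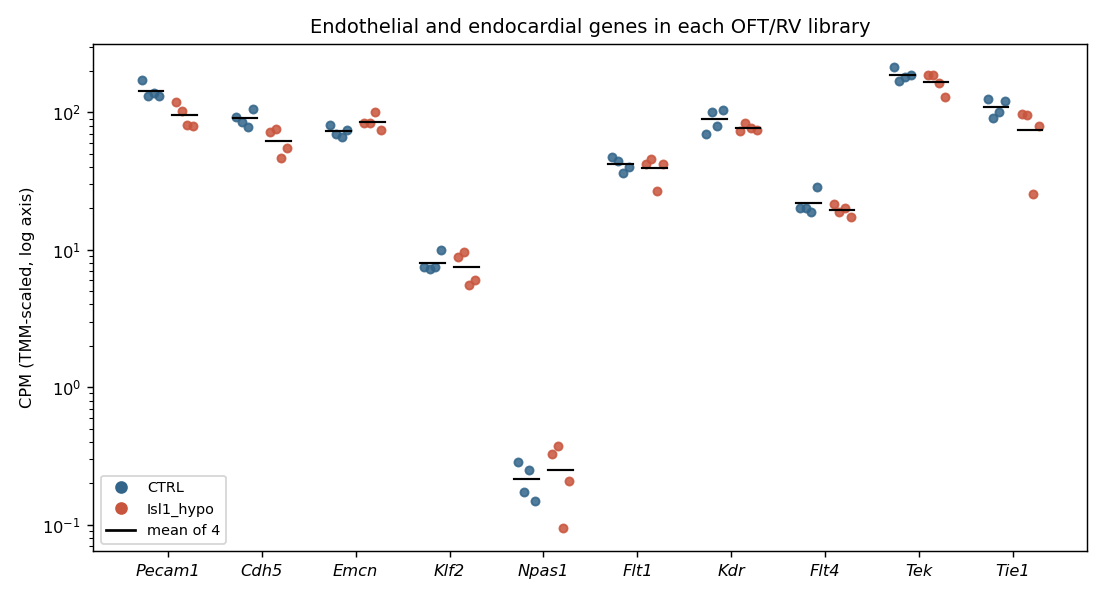
Level of the 10 genes in each library in TMM-scaled CPM on a log axis. Points are single embryos, blue for CTRL and red for Isl1_hypo, and bars are means of 4. Tek was highest per library at 129 to 213 CPM, and Npas1 lay at 0.0948 to 0.375 CPM.

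Promoters of the genes were examined for short sequences known to be bound by ETS and GATA factors, families with members in endothelial cells. RefSeq promoter windows (build GRCm38.p6) were found for 8 of the 10 genes, and Pecam1 and Cdh5 had no entry. The windows of the Tie receptor genes and of Emcn are shown because Tek and Tie1 encode sister receptors whose ratio was far lower in 1 library and Emcn had the highest level per kilobase. Each is written 5′ to 3′ on the strand of the gene, for Tek at chr4:94739039-94739338 (plus strand), for Tie1 at chr4:118489800-118490099 (minus strand) and for Emcn at chr3:137340828-137341127 (plus strand). Capitals mark the ETS sequences CAGGAA and CCGGAA and the GATA sequence AGATAA or their reverse complements.
Tek: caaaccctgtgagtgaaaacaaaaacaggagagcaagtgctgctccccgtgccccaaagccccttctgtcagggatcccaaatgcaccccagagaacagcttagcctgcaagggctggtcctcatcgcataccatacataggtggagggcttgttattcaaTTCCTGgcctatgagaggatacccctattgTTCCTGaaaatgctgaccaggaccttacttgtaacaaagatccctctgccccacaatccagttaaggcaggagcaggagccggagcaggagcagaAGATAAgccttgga
Tie1: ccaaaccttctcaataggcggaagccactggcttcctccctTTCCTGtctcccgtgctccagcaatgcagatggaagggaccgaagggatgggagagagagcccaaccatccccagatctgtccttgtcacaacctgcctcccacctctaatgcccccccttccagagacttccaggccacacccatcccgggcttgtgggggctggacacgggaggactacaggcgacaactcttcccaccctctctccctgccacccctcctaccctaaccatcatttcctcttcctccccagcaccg
Emcn: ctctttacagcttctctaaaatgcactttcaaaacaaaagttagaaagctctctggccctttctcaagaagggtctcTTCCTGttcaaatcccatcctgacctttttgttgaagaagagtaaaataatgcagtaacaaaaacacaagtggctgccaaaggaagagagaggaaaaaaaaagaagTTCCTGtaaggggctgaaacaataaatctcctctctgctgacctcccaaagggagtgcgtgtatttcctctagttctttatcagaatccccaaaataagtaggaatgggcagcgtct

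Tek and Emcn each held 2 copies of CAGGAA and Tie1 held 1 copy, all read as the reverse complement TTCCTG. Tek also held AGATAA, in the last bases of the window. Of the 8 promoters, 4 held CAGGAA (Tek, Tie1, Emcn and Npas1), against 30.6% of 32851 mouse promoters of the same length. CCGGAA was found in 2 (Kdr and Npas1), against 14.9%, and AGATAA in 1, against 11.2%. Flt1, Flt4 and Klf2 held none of the 3 sequences. A match is a description of these windows and says nothing of binding.

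The comparison of CTRL with Isl1_hypo asked whether the endothelial genes changed with reduced Isl1. None of the 9 tested genes passed the test after adjustment over all genes, where 0.269% of genes did so, and 2 had an unadjusted p under 0.05 (Pecam1 and Cdh5, both lower), where 11.9% of all genes did so and 6.17% did so in the lower direction. In the higher direction the share over all genes was 5.69%, and no member was among them. DESeq2 called 1 of the 9, Pecam1, where it called 319 of 13769 genes (2.32%), and limma-voom called 0 of the 9 and 134 over all genes (0.973%). The fitted fold change was below 0 in 8 of the 9 genes and above 0 in Emcn, with a median of −0.18 on the log2 scale against 0.0057 over all genes tested. The groups did not overlap in 2 genes, again Pecam1 and Cdh5, where 8.5% of all genes showed no overlap.

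**Figure D2:**
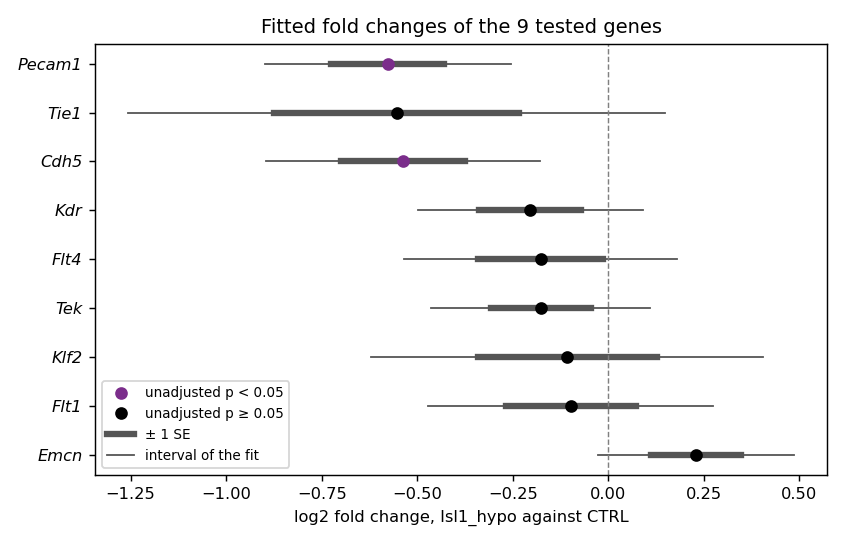
Fitted log2 fold change of Isl1_hypo against CTRL for the 9 tested genes, with thick lines for ± 1 SE and thin lines for the 95% interval of the fit. Purple points mark an unadjusted p under 0.05, held by Pecam1 (−0.58) and Cdh5 (−0.54), and Emcn is the only point above 0.

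The junction genes were described first. Pecam1 encodes an immunoglobulin-family adhesion protein of endothelial junctions that is also carried by platelets and leukocytes. The gene is protein-coding (mm9, chromosome 11, minus strand, 106515531 to 106611942). Its 4 RefSeq transcripts share most of their reads, the others holding 93.9% to 99.6% of the counts of the one kept. A snoRNA gene annotated on the opposite strand lies within Pecam1, and the counting ignored strand. CTRL replicates 1 to 4 held 170, 132, 139 and 130 CPM of Pecam1, and Isl1_hypo replicates 1 to 4 held 119, 102, 81.1 and 80.1 CPM. Every Isl1_hypo library was below every CTRL library, and replicates 3 and 4 were the lowest. The mean was 143 ± 18.8 CPM in CTRL and 95.7 ± 18.8 CPM in Isl1_hypo (SD, n = 4), which is 67.0% of CTRL. Its log2 fold change was −0.58 (SE 0.147, unadjusted p = 0.00219, adjusted p = 0.170, edgeR). DESeq2 gave an adjusted p of 0.0205 for a log2 fold change of −0.58. Over the 20 alternatives the adjusted p of Pecam1 ranged from 0.0205 to 1. Without Isl1_hypo replicate 3 the log2 fold change was −0.51 (edgeR unadjusted p = 0.0044), without replicate 1 it was −0.70 (edgeR unadjusted p = 0.00043), and with the globin level as a covariate it was −0.36 (edgeR unadjusted p = 0.135).

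Cdh5 encodes VE-cadherin, the adhesion protein of endothelial adherens junctions. It lies on the plus strand of chromosome 8 (106625525 to 106668402). CTRL replicates held 92.6, 84.3, 77.7 and 106 CPM of Cdh5, and Isl1_hypo replicates held 71.3, 76.0, 46.7 and 54.5 CPM. The groups did not overlap, although the nearest pair, 77.7 CPM in CTRL replicate 3 and 76.0 CPM in Isl1_hypo replicate 2, differed by little. With means of 90.1 ± 12.1 and 62.1 ± 13.8 CPM, Cdh5 had a log2 fold change of −0.54 (SE 0.163, unadjusted p = 0.00686, adjusted p = 0.241, edgeR). Its unadjusted p stayed under 0.05 in all 20 alternatives, and its adjusted p was at least 0.0733. Without Isl1_hypo replicate 3 the log2 fold change was −0.42, and without replicate 1 it was −0.61. The 2 junction genes were thus lower by a similar size, and in both the 2 lowest libraries were Isl1_hypo replicates 3 and 4.

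Emcn encodes endomucin, a mucin-like surface protein of venous endothelium, capillaries and endocardium. It lies on the plus strand of chromosome 3 (137004031 to 137095149). CTRL replicates held 80.6, 69.8, 65.5 and 74.0 CPM of Emcn, and Isl1_hypo replicates held 82.8, 83.2, 99.6 and 74.1 CPM. All of the Isl1_hypo libraries except replicate 4 were above the highest CTRL library. The means were 72.5 ± 6.41 and 84.9 ± 10.7 CPM (SD, n = 4). Between the groups the log2 fold change was 0.23 (SE 0.117, unadjusted p = 0.0748, adjusted p = 0.475, edgeR), and its 95% interval ran from −0.03 to 0.49. Without Isl1_hypo replicate 3, which held the highest value, it was 0.14. It was 0.28 without CTRL replicate 1 (edgeR unadjusted p = 0.0476). Without Isl1_hypo replicate 4 it was 0.29 (edgeR unadjusted p = 0.0391).

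Klf2 encodes a zinc finger transcription factor that endothelial cells raise under shear stress. It lies on the plus strand of chromosome 8 (74842932 to 74845555). CTRL replicates held 7.49, 7.21, 7.55 and 9.92 CPM of Klf2, and Isl1_hypo replicates held 8.85, 9.56, 5.50 and 6.02 CPM. The groups overlapped, and Isl1_hypo split into 2 libraries above most of CTRL and 2 below all of it. The log2 fold change of Klf2 was −0.11 (SE 0.234, 95% interval −0.62 to 0.41, adjusted p = 0.887, edgeR), and it turned to 0.02 without Isl1_hypo replicate 3 and to 0.01 without CTRL replicate 4. It was −0.0019 in limma-voom, −0.23 with the globin covariate and 0.09 with the GC trend of each library removed. Npas1, on the minus strand of chromosome 7 (17041070 to 17062129), held 9, 7, 10 and 7 counts in CTRL and 6, 10, 3 and 6 counts in Isl1_hypo. Pooled over each group this is 0.208 CPM (95% exact Poisson interval 0.143 to 0.292) and 0.237 CPM (0.153 to 0.349), intervals that cover counting error only. No difference in Npas1 was detectable at this depth. An rRNA gene annotated on the opposite strand likewise lies within Npas1.

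The VEGF receptors were examined next. Kdr encodes the receptor through which VEGF-A drives most endothelial responses (chromosome 5, minus strand, 76328852 to 76374483). CTRL replicates held 70.0, 101, 80.0 and 104 CPM of Kdr, and Isl1_hypo replicates held 73.6, 83.7, 76.8 and 74.0 CPM. The Isl1_hypo libraries lay close together within the range of CTRL. Kdr had a log2 fold change of −0.20 (SE 0.134, 95% interval −0.50 to 0.09, adjusted p = 0.567, edgeR). It was −0.31 without CTRL replicate 1 (edgeR unadjusted p = 0.0299) and −0.12 without CTRL replicate 4. With the globin covariate it was −0.36, and with the length trend of each library removed −0.10.

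Flt1 encodes a high-affinity VEGF receptor that in its soluble form acts as a decoy (chromosome 5, minus strand, 148373180 to 148537587). CTRL replicates held 47.0, 44.1, 36.3 and 39.9 CPM of Flt1, and Isl1_hypo replicates held 41.7, 45.9, 26.8 and 41.8 CPM. The groups overlapped apart from Isl1_hypo replicate 3, the lowest library. The log2 fold change of Flt1 was −0.10 (SE 0.170, 95% interval −0.47 to 0.27, adjusted p = 0.852, edgeR), and 0.05 without that library. It was 0.19 with the globin covariate and 0.00385 with the length trend removed. Flt4 encodes the receptor of VEGF-C and VEGF-D, active in lymphatic and early vascular endothelium (chromosome 11, plus strand, 49422765 to 49466241). CTRL replicates held 20.1, 20.0, 18.9 and 28.5 CPM of Flt4, and Isl1_hypo replicates held 21.5, 18.9, 19.9 and 17.2 CPM. CTRL replicate 4 stood above the other 7 libraries, which lay between 17.2 and 21.5 CPM. Flt4 had a log2 fold change of −0.18 (SE 0.163, 95% interval −0.53 to 0.18, adjusted p = 0.694, edgeR), and −0.02 without CTRL replicate 4. With the globin covariate it was −0.50 (edgeR unadjusted p = 0.046), with the GC trend removed −0.04 and with the length trend removed −0.06. The ratio of Flt1 to Kdr in CPM per kilobase ranged from 0.331 to 0.582 in CTRL and from 0.303 to 0.491 in Isl1_hypo, and that of Flt4 to Kdr from 0.185 to 0.268 and from 0.211 to 0.272. Both overlapped between the groups.

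The Tie receptors came last. Tek encodes Tie2, the receptor of the angiopoietins (chromosome 4, plus strand, 94405980 to 94541667). CTRL replicates held 213, 168, 181 and 188 CPM of Tek, and Isl1_hypo replicates held 186, 185, 163 and 129 CPM. The groups overlapped, with Isl1_hypo replicates 3 and 4 below all of CTRL. Its log2 fold change was −0.18 (SE 0.131, 95% interval −0.46 to 0.11, adjusted p = 0.617, edgeR). Tek was at −0.07 without Isl1_hypo replicate 4, its lowest library, and at −0.11 without CTRL replicate 1. With the length trend removed it was at −0.08, and in limma-voom at −0.12. Without Isl1_hypo replicate 3 the values were −0.17 for Tek, −0.20 for Kdr and −0.19 for Flt4.

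Tie1 encodes the sister receptor, which binds no angiopoietin strongly by itself and modulates Tie2 (chromosome 4, minus strand, 118143796 to 118162666). CTRL replicates held 124, 91.1, 100 and 121 CPM of Tie1, and Isl1_hypo replicates held 97.2, 95.0, 25.3 and 79.9 CPM. Isl1_hypo replicate 3 was far below every other library. The log2 fold change of Tie1 was −0.55 (SE 0.320, 95% interval −1.26 to 0.15, adjusted p = 0.521, edgeR), and −0.27 without that library (adjusted p = 0.48). The ratio of Tie1 to Tek in CPM per kilobase was 0.705, 0.659, 0.672 and 0.780 in CTRL and 0.632, 0.623, 0.188 and 0.750 in Isl1_hypo. Tie1 had a GC content of 58.2%, exceeded among the tested genes described here by Klf2 alone. The GC trend of Isl1_hypo replicate 3 over all genes came to −0.402 on the log2 scale at this GC content, where Tie1 differed by −1.84 from the mean of the other Isl1_hypo libraries. With the GC trend of each library removed the log2 fold change of Tie1 was −0.46, with the globin covariate −0.36 and in limma-voom −0.30. With the replicate number as a block it was −0.70 (edgeR unadjusted p = 0.0392), and without Isl1_hypo replicate 1 it was −0.71.

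**Figure D3:**
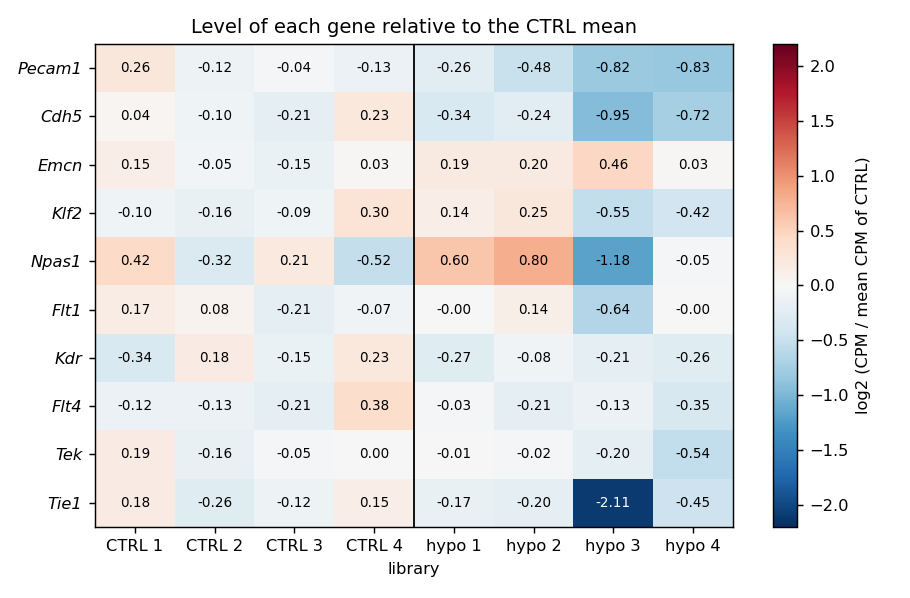
Level of each gene in each library as log2 of its CPM over the CTRL mean, with rows for genes and columns for the 4 CTRL and 4 Isl1_hypo (hypo) libraries. Pecam1, Cdh5, Kdr, Flt4, Tek and Tie1 were below 0 in all 4 Isl1_hypo libraries and Emcn in none, and the lowest cell is Tie1 in Isl1_hypo replicate 3 (25.3 CPM).

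No single library was highest or lowest for all of the genes. CTRL replicate 1 was highest in its group for 5 of the 9 tested genes and CTRL replicate 4 for 4, while Isl1_hypo replicates 1 and 2 were each highest for 4 and replicates 3 and 4 each lowest for 4, as the map of levels relative to the CTRL mean shows. To describe each gene relative to the junction genes of its own library, its CPM per kilobase was divided by the sum of Pecam1 and Cdh5, a ratio that does not depend on library scaling. This ratio did not overlap between the groups in 4 of the 7 other tested genes, and was higher in Isl1_hypo in all 4 (Flt1, Tek, Emcn and Klf2). The same was true of 39.5% of all genes in the higher direction and of 39.8% in either direction, so that this count is no result about these genes. For Emcn the difference between the group means was the largest of the 7 (0.80 on the log2 scale, and 0.63 without Isl1_hypo replicate 3). For Tie1 it was −0.14, and it turned to 0.23 without that library.

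Set against single genes, Emcn per kilobase was 1.08, 1.21, 1.08 and 1.30 times Pecam1 in CTRL and 1.59, 1.87, 2.81 and 2.12 times Pecam1 in Isl1_hypo. The ratio of Emcn to Cdh5 was 2.39, 2.27, 2.32 and 1.92 in CTRL and 3.19, 3.005, 5.86 and 3.73 in Isl1_hypo. The groups did not overlap in either ratio, nor in the ratios of Emcn to Tek and to Tie1, and they overlapped in the ratios to Kdr, Flt1, Flt4 and Klf2. Over all genes, the ratio to Pecam1 was higher without overlap in 36.1%, that to Cdh5 in 28.2%, that to Tek in 5.27% and that to Tie1 in 14.3%. For the ratios in which Emcn overlapped, the share of all genes was 5.53% for Kdr, 2.11% for Flt1, 4.49% for Flt4 and 1.72% for Klf2. The separation from Pecam1 and Cdh5 is therefore common among genes. These ratios were chosen after the values were seen and carry no test.

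**Figure D4:**
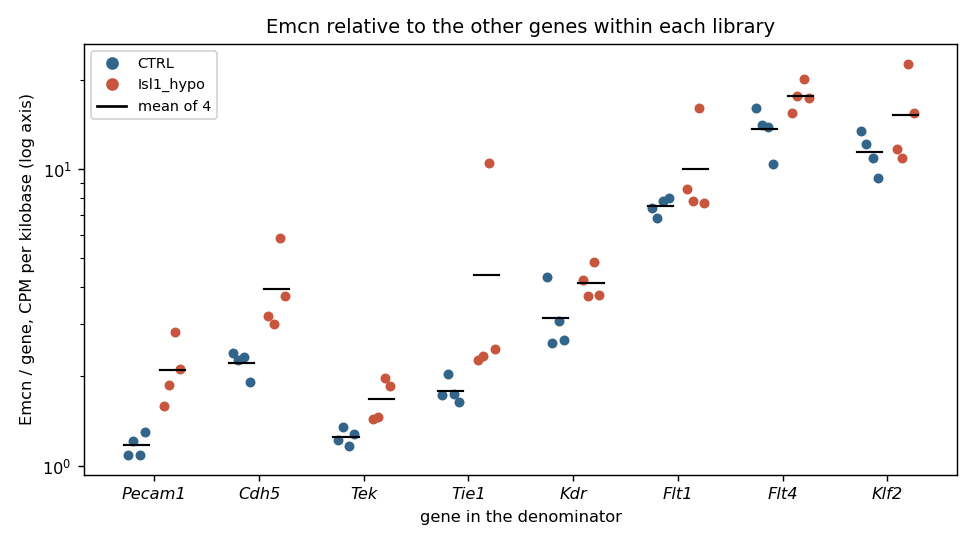
Emcn divided by each of the other 8 tested genes in CPM per kilobase, per library on a log axis, with blue points for CTRL, red points for Isl1_hypo and bars for means of 4. The groups are apart for Pecam1, Cdh5, Tek and Tie1, with Emcn over Pecam1 at 1.08 to 1.30 in CTRL and 1.59 to 2.81 in Isl1_hypo.

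The ligands and partners of these receptors were counted from a list of 18 tested genes of the VEGF and angiopoietin pathway. None passed the adjusted test in edgeR, 7 had a fold change above and 11 below 0, and 3 had an unadjusted p under 0.05, all lower, where 6.17% of all genes were lower at that level. With 1 library left out 2 to 4 were lower and 0 or 1 higher, and with the globin covariate 0 were lower and 2 higher. The median log2 fold change was −0.09, and it lay between −0.17 (without Isl1_hypo replicate 2) and −0.04 (without Isl1_hypo replicate 4) when 1 library was left out. Without CTRL replicate 4, 9 genes were above and 9 below 0. Vegfc, the ligand of Flt4, held 17.2 to 22.0 CPM in CTRL and 9.51 to 14.0 CPM in Isl1_hypo, without overlap (log2 fold change −0.62, SE 0.167, adjusted p = 0.195). Nrp2, a co-receptor of VEGF-C, held 39.3 to 46.6 CPM in CTRL and 13.6 to 35.4 CPM in Isl1_hypo, also without overlap (−0.66, adjusted p = 0.310, and −0.43 without Isl1_hypo replicate 3). Ptprb, the VE-PTP phosphatase that acts on Tie2 and VE-cadherin, overlapped (−0.59, adjusted p = 0.369, and −0.34 without CTRL replicate 1). The lowest fold change of the list was that of the ligand Angpt2 (−0.67) and the highest that of Angpt4 (1.43, SE 1.09), which was at 3.10 CPM or less in every library and at 0.01 without Isl1_hypo replicate 1. Angpt2 was at −0.37 without CTRL replicate 2.

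A list of other endothelial genes had 30 tested members, among them Ptprb again. Of these, 11 were above and 19 below 0 with a median of −0.15 (−0.03 without Isl1_hypo replicate 3), none passed the adjusted test, and 2 higher and 3 lower had an unadjusted p under 0.05, where 11.9% of all genes did. There was 1 higher and 1 lower without CTRL replicate 2, 1 higher without CTRL replicate 3, CTRL replicate 4 or Isl1_hypo replicate 1, 0 higher without Isl1_hypo replicate 2, and 3 higher without Isl1_hypo replicate 3. The lower ones were the tight junction gene Cldn5 (−1.12, SE 0.418, adjusted p = 0.316, at 2.01 to 13.8 CPM over all libraries), the BMP-family receptor gene Acvrl1 (−0.86, and −0.57 without Isl1_hypo replicate 3) and Ptprb. The higher ones were S1pr1, a receptor of sphingosine phosphate (0.36, adjusted p = 0.312), and Cd93, a surface lectin-like protein (0.34, and 0.21 without Isl1_hypo replicate 2). Etv2, an early regulator of endothelial fate, had the highest fold change of this list at 0.42 (adjusted p = 0.696), which was −0.00039 without Isl1_hypo replicate 3, where it held 8.91 CPM.

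Among 8 endocardial genes, of which Plvap also stands in the list before, 1 higher and 1 lower had an unadjusted p under 0.05, where 11.9% of all genes did. None was lower at that level without CTRL replicate 3, Isl1_hypo replicate 2 or Isl1_hypo replicate 4, and 2 were higher without CTRL replicate 3, CTRL replicate 4 or Isl1_hypo replicate 3. The median was −0.11, with 3 above and 5 below 0, and it turned to 0.03 with 4 above and 4 below 0 without CTRL replicate 1. Tmem100, a membrane protein induced by BMP signalling in arterial and endocardial cells, held 16.5 to 20.9 CPM in CTRL and 23.6 to 44.7 CPM in Isl1_hypo. Its groups did not overlap (log2 fold change 0.82, SE 0.185, unadjusted p = 0.000943, adjusted p = 0.110, edgeR). Without Isl1_hypo replicate 3 the log2 fold change of Tmem100 was 0.63. Gata5, a GATA factor of endocardial progenitors, had the lowest value of the list (−0.56, adjusted p = 0.369), and was at −0.35 without Isl1_hypo replicate 3. Without that library, CTRL replicate 2 or CTRL replicate 4, the gene Nrg1 was lowest instead. Of 9 flow-responsive genes 2 were above and 7 below 0, with a median of −0.20 (−0.08 without Isl1_hypo replicate 3 and −0.33 without replicate 4). At an unadjusted p under 0.05, 2 were lower, 1 without CTRL replicate 3 or without Isl1_hypo replicate 1, and 4 without Isl1_hypo replicate 4, against 6.17% of all genes. Pkd1, the gene of the mechanosensory protein polycystin, held 34.0 to 52.3 CPM in CTRL and 15.3 to 33.2 CPM in Isl1_hypo (−0.67, adjusted p = 0.296), without overlap. It was at −0.47 without Isl1_hypo replicate 3. Edn1, which encodes the vasoconstrictor endothelin, was at −0.47 (adjusted p = 0.312), and Cav1, a coat protein of caveolae, was highest at 0.22, and at 0.01 without Isl1_hypo replicate 1.

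Of 12 arterial, venous and lymphatic genes, 4 were above and 8 below 0 with a median of −0.12, which turned to 0.03 without Isl1_hypo replicate 3 and was −0.22 without replicate 2. Nr2f2, which encodes the venous regulator COUP-TFII and is also made in mesenchyme, atria and epicardium, held 9.41 to 17.5 CPM in CTRL and 18.5 to 38.0 CPM in Isl1_hypo, without overlap (0.97, SE 0.250, unadjusted p = 0.00235, adjusted p = 0.173, edgeR). It was at 0.72 without Isl1_hypo replicate 3. The chemokine receptor gene Cxcr4 was lowest at −0.40, and at −0.26 without Isl1_hypo replicate 3. Of 11 bHLH-PAS relatives of Npas1, 7 could be tested, with 4 above and 3 below 0 and a median of 0.04, which ranged from −0.06 to 0.11 when 1 library was left out. Hif1a, the hypoxia-inducible factor gene, was at 0.20 (SE 0.0891, unadjusted p = 0.0449, adjusted p = 0.406, edgeR), the bHLH-PAS partner gene Arnt2 was lowest at −0.61 (−0.38 without Isl1_hypo replicate 3) and Ahr, the aryl hydrocarbon receptor gene, highest at 0.65. Of the 82 distinct genes tested over these 6 lists, 13 had an unadjusted p under 0.05, where 11.9% of all genes did. With the globin level as a covariate they numbered 5, where 3.66% of all genes had an unadjusted p under 0.05 in that fit (1.57% lower and 2.09% higher). These were 2 higher genes of the VEGF and angiopoietin pathway, 1 higher among the other endothelial genes, 1 higher among the endocardial and 1 lower among the arterial, venous and lymphatic genes.

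**Figure D5:**
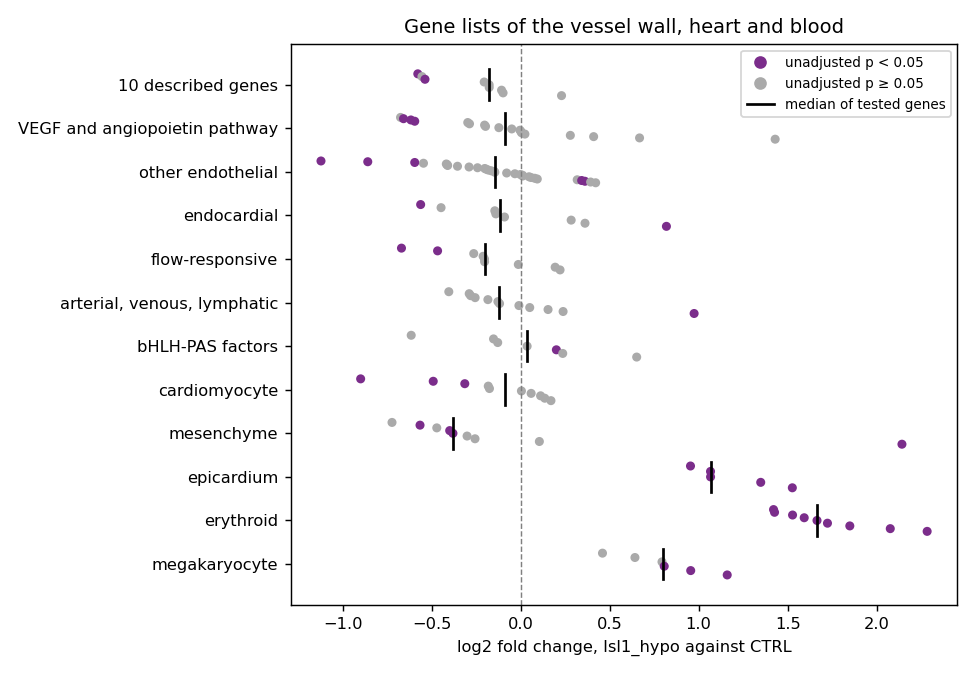
Log2 fold change of Isl1_hypo against CTRL for each tested gene (points) of the described genes and of gene lists for the vessel wall, heart and blood, with black bars for list medians. Purple points had an unadjusted p under 0.05. Over all 8 libraries the medians of the endothelial lists lie between −0.20 and −0.09, and those of the epicardial, erythroid and megakaryocyte lists at 1.07, 1.66 and 0.80.

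Markers of other cells in the tissue were counted in the same way, where 5.69% of all genes were higher and 6.17% lower at an unadjusted p under 0.05. All 9 erythroid markers had an unadjusted p under 0.05 and were higher in Isl1_hypo, with a summed level of 1924 to 11243 CPM in CTRL and 11261 to 23363 CPM in Isl1_hypo. One of them, Epb42 of the red cell membrane, passed the adjusted test (log2 fold change 2.28, adjusted p = 0.0172, edgeR). All 5 epicardial markers were likewise higher at an unadjusted p under 0.05, with sums of 51.6 to 304 CPM and 379 to 665 CPM and a median log2 fold change of 1.07. With the globin covariate 0 of the 5 had an unadjusted p under 0.05 and the median was 0.30. In that fit 1 of the 9 erythroid markers, a list that holds globin genes, had one, as did 1 cardiomyocyte and 2 macrophage markers and none of the megakaryocyte, progenitor, mesenchymal, epithelial and neural lists. Platelet-lineage cells also carry Pecam1, and 3 of 6 megakaryocyte markers had an unadjusted p under 0.05, all higher, with sums of 42.7 to 83.9 CPM in CTRL and 62.1 to 205 CPM in Isl1_hypo. That count of 3 was 0 without CTRL replicate 1, CTRL replicate 3 or Isl1_hypo replicate 1, and 5 without CTRL replicate 4. The median of the 6 was 0.80, and 0.52 without Isl1_hypo replicate 1. Macrophage markers, of which 7 were tested, were all below 0 with no unadjusted p under 0.05 (2 without Isl1_hypo replicate 1), at sums of 11.1 to 28.4 CPM and 4.39 to 19.4 CPM. Without CTRL replicate 4, 2 of the 7 were above 0. Of 6 haematopoietic progenitor markers, a lineage in which Tek and Kdr are also known, 4 were above and 2 below 0 with a median of 0.12. Tal1 (0.89) and Gfi1b (2.15) had an unadjusted p under 0.05, and Myb was lowest at −0.33. Cardiomyocyte markers, of which 3 of 10 had an unadjusted p under 0.05, all lower, summed to 42759 to 52494 CPM and 45381 to 54086 CPM. Of the 10, 5 were above and 5 below 0, with a median of −0.09. Of 9 mesenchymal markers 3 were lower and 1 higher at that level, with a median of −0.38. Without CTRL replicate 1 none was lower at that level and the median was −0.18, and over the other leave-outs the count of lower ones ran from 1 to 5. The higher one, Lum (2.14), was at 0.18 without Isl1_hypo replicate 1. Of 7 epithelial markers 3 were tested (Krt8, Krt18 and Epcam), all higher (median 0.92), and Epcam dropped from 2.44 to 0.73 without Isl1_hypo replicate 1, the library that also held Cdh1, Cldn6 and Esrp1. Foxa2 was under 1 CPM in every library. Of 6 neural markers tested 1, Stmn2, was lower at that level (−0.61), none without CTRL replicate 1 and 3 without Isl1_hypo replicate 1, with Sox2 under 1 CPM in every library. No marker was at 0 in all libraries. The part of these cells in the levels of the endothelial genes was not tested. The globin covariate could not test it, since globin level and group largely coincide.

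The genes whose levels most resembled the mean of Pecam1, Cdh5, Emcn, Kdr, Tek and Tie1 over the 8 libraries were Frem1 (Pearson r = 0.968), Sulf1 (0.966), Hmcn1 (0.947), Ncbp2 (0.946) and Pdk4 (0.944), out of 10735 candidates with a mean of at least 5 CPM. Frem1 and Hmcn1 encode extracellular matrix proteins, Sulf1 a heparan sulfate sulfatase, Ncbp2 a cap-binding protein and Pdk4 a kinase of the pyruvate dehydrogenase complex. None passed the adjusted test between the groups, with fold changes from −0.53 to −0.18 and Hmcn1 lowest (adjusted p = 0.295, edgeR). The same search for Npas1 gave Sorcs2, Helb, Apbb2, Slc39a3 and Elmo2 with r from 0.957 to 0.987. Since Npas1 rested on 3 to 10 counts a library, this likeness is no finding. All of these values share the libraries and their depth.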

How the data were processed

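The authors aligned reads with STAR to mm9, and HOMER gave exon reads per RefSeq transcript on both strands together. The deposited counts are raw whole numbers. RPKM values and the authors' own DESeq2 comparison (fold changes, p-values) stand beside them and were not used. Of 31507 transcripts, the one with the highest mean count was kept per symbol. Isl1_hypo was compared with CTRL (n = 4 each, single embryos) by the edgeR 4.0.16 quasi-likelihood test in R 4.3.3, after filterByExpr and TMM, with Benjamini-Hochberg adjustment over 13769 genes. The standard error is the log2 fold change over the root of F. Log2 CPM used a prior count of 2. Alternatives included DESeq2 1.42.0 and limma-voom (limma 3.58.1). Coordinates are from GENCODE on mm9, promoters from RefSeq on GRCm38.p6.

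The genes and lists were chosen with earlier results of these data known. Genes named were Isl1, the 10 described, those of the 6 pathway and cell-type lists of the vessel wall and bHLH-PAS factors with an unadjusted p under 0.05 (at most 5 a list), each such list's lowest and highest fold change, and the 5 most alike in pattern. Markers of other cells that are named were chosen after their values were seen. The biological coefficient of variation was 26.4%.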

Additional observations from a re-analysis of the deposited data

Results flagged for a closer look

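In 3 of 22 groups of 4 libraries examined, 1 library lay far from the other 3, by Dixon's criterion at 95%, where chance gives 1.1. Tie1 in Isl1_hypo replicate 3 was at 4.662 on the log2 CPM scale, against 6.321 to 6.604 in the other Isl1_hypo libraries. Flt4 in CTRL replicate 4 was at 4.834, against 4.249 to 4.335 in the other CTRL libraries. Klf2 in the same CTRL library was at 3.319, against 2.862 to 2.928.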

How the results depend on the processing

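Genes with an adjusted p under 0.05 numbered 37, and 319 by DESeq2, 134 by limma-voom with sample weights, 0 with the replicate block, 0 with the globin covariate and 4 to 48 when 1 library was left out. Isl1 stayed at −2.29 with the replicate block (adjusted p = 0.0722) and −2.30 with the globin covariate (adjusted p = 0.507). Samples of the same number did not deviate together (r −0.0209 to 0.0219), and the block gave 3 described genes at an unadjusted p under 0.05 in place of 2, with Tie1 added. That count was 2 to 4 when 1 library was left out, with 4 without CTRL replicate 1. DESeq2 called 1 described gene at an adjusted p under 0.05. Over 20 settings and 9 genes, 172 of 180 fold changes kept their direction and call, 1 became a call (Pecam1 in DESeq2) and 7 reversed. Flt1 reversed to 0.051 (limma-voom), 0.19 (globin covariate) and 0.00385 (length trend removed, added after seeing the data), and ranged from −0.191 to 0.0453 when 1 library was left out (0.0453 without Isl1_hypo replicate 3). Klf2 reversed to 0.087 (GC trend removed, added after seeing the data), and ranged from −0.254 to 0.0153 when 1 library was left out (0.00995 without CTRL replicate 4 and 0.0153 without Isl1_hypo replicate 3). The cause was not tested. At 3 to 10 counts Npas1 is limited by depth, and without the filter its log2 fold change was 0.21 (SE 0.945, adjusted p = 0.952, edgeR).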
